A study of Danio rerio with 4 samples.

Results

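The genes described here encode heat shock proteins of the cytosol and of the mitochondrial matrix, in liver cells of zebrafish larvae. They were chosen by name: the 7 symbols hspa8, hsp90ab1, hsp90aa1.1, hspa4a, hspa9, hspd1 and hspe1 were looked up among the gene IDs of the deposited table, and 9 IDs of 33737 were found. The symbol hspa8 had 2 IDs, ENSDARG00000068992 and ENSDARG00000037403, which are reported apart. No ID carried the symbol hspa4a itself. Without the copy letter the symbol table gave HSPA4 at 2 IDs, ENSDARG00000004754 and ENSDARG00000018989. It did not say whether either is the a copy, so both are described and neither is called hspa4a.

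The study compared zc3h8-/- mutant larvae with wild-type larvae at 5.5 and 7.5 days post fertilization (dpf), and zc3h8 encodes a CCCH-type zinc finger protein. There were 4 groups of 1 RNA sequencing library each: zc3h8-/- at 5.5 dpf, wild type at 5.5 dpf, zc3h8-/- at 7.5 dpf and wild type at 7.5 dpf. All larvae carried Tg(lfabp:Dendra2-NTR), in which a liver fatty acid binding protein promoter drives a fluorescent protein and nitroreductase in hepatocytes; the strain label of all groups was ABGO. Livers were dissected, digested with trypsin and flow sorted, and cDNA was made by Smart-seq2, a full-length method with PCR amplification. The mutation was not restricted to the liver by the labels, and no source used here gives the number of larvae behind each library.

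Heat shock proteins are molecular chaperones, and most of those described here are made in unstressed cells as well as under stress. In the cytosol HSP70 proteins bind unfolded stretches of new or damaged proteins in cycles of ATP hydrolysis, HSP110 proteins such as that of HSPA4 exchange the nucleotide of HSP70, and HSP90 takes over client proteins such as kinases and hormone receptors. In the mitochondrial matrix HSPA9 (mortalin) pulls imported chains through the inner membrane, and the HSP60 chaperonin made from hspd1 folds them inside a chamber that its lid, the HSP10 protein made from hspe1, closes. In hepatocytes, which make large amounts of enzymes and plasma proteins, both systems are in constant use.

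Each library held 29648253 to 36999723 reads counted to genes. Of the 11135 genes with a mean of at least 1 RPKM (read counts divided by gene length and library total) over the 4 libraries, 26.2, 18.6, 23.6 and 34.2% had 3 reads or fewer in the mutant and wild-type libraries at 5.5 dpf and the mutant and wild-type libraries at 7.5 dpf. With 1 library per group the spread between animals is not known for any difference, and the 95% counting intervals cover counting error only, since PCR reads without molecular identifiers are not independent molecules. A fold given as at least sets 0 reads to 3 reads and likewise covers counting error only. No ID carried the symbol zc3h8, and the targeted gene itself is not analysed here. All 18 matched IDs of the hepatocyte marker list had more than 3 reads in every library, and their summed level was 48239 RPKM in mutant and 92402 RPKM in wild-type cells at 5.5 dpf, and 22175 RPKM in mutant and 80895 RPKM in wild-type cells at 7.5 dpf. The gene apoa2 alone was at 24760 RPKM in mutant and 42933 RPKM in wild-type cells at 5.5 dpf. In mutant cells at 5.5 dpf 0 of the 18 IDs were at least 2-fold higher and 7 lower. At 7.5 dpf 1 was higher and 15 lower. Of the 11135 genes 28% were higher and 25.6% lower at 5.5 dpf, and 40% and 23.1% at 7.5 dpf. On the deposited scaling the fibrinogen genes fga, FGB and FGG were higher in mutant cells at 5.5 dpf but within 2-fold. Their differences of log2(RPKM + 1) were 0.07, 0.42 and 0.55. Median-ratio and TMM size factors shifted this comparison by −0.31 and −0.37 on the log2 scale, more than the difference of fga. HNF4A was higher at 7.5 dpf, at 21.1 RPKM in mutant and 7.47 RPKM in wild-type cells. In such bulk samples fewer cells of a type and less RNA per cell cannot be told apart.

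Of the cytosolic members, the abundant hspa8 (ENSDARG00000068992) and hsp90ab1 differed by at most 1.30-fold between the genotypes at each stage on the deposited scaling. Both HSPA4 genes were higher in mutant cells at both stages, by between 2.997-fold and 157-fold. Some abundant cytosolic chaperone genes outside the members, described below, differed by more than 1.30-fold. In the mitochondrial set the pair of partner genes parted: hspe1, for the HSP10 lid, was 3.21-fold higher in mutant cells at 5.5 dpf and 1.65-fold higher at 7.5 dpf, whereas hspd1, for the HSP60 barrel, was 1.23-fold and 1.27-fold lower. The 9 IDs took 0.855% of reads in mutant and 0.649% in wild-type cells at 5.5 dpf, and 0.892% in mutant and 0.757% in wild-type cells at 7.5 dpf. Most of these reads were those of hspa8 (ENSDARG00000068992), whose difference at 7.5 dpf turned sign under other scalings. On the deposited scaling the share of reads was higher in the mutant library at each stage. Most of it was the cytosolic set, with 0.728% in mutant and 0.565% in wild-type cells at 5.5 dpf and 0.832% in mutant and 0.6997% in wild-type cells at 7.5 dpf. The mitochondrial set took 0.127% in mutant and 0.0840% in wild-type cells at 5.5 dpf, against 0.0608% in mutant and 0.0573% in wild-type cells at 7.5 dpf, so that it was a smaller part of both libraries at the later stage.

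**Figure D1:**
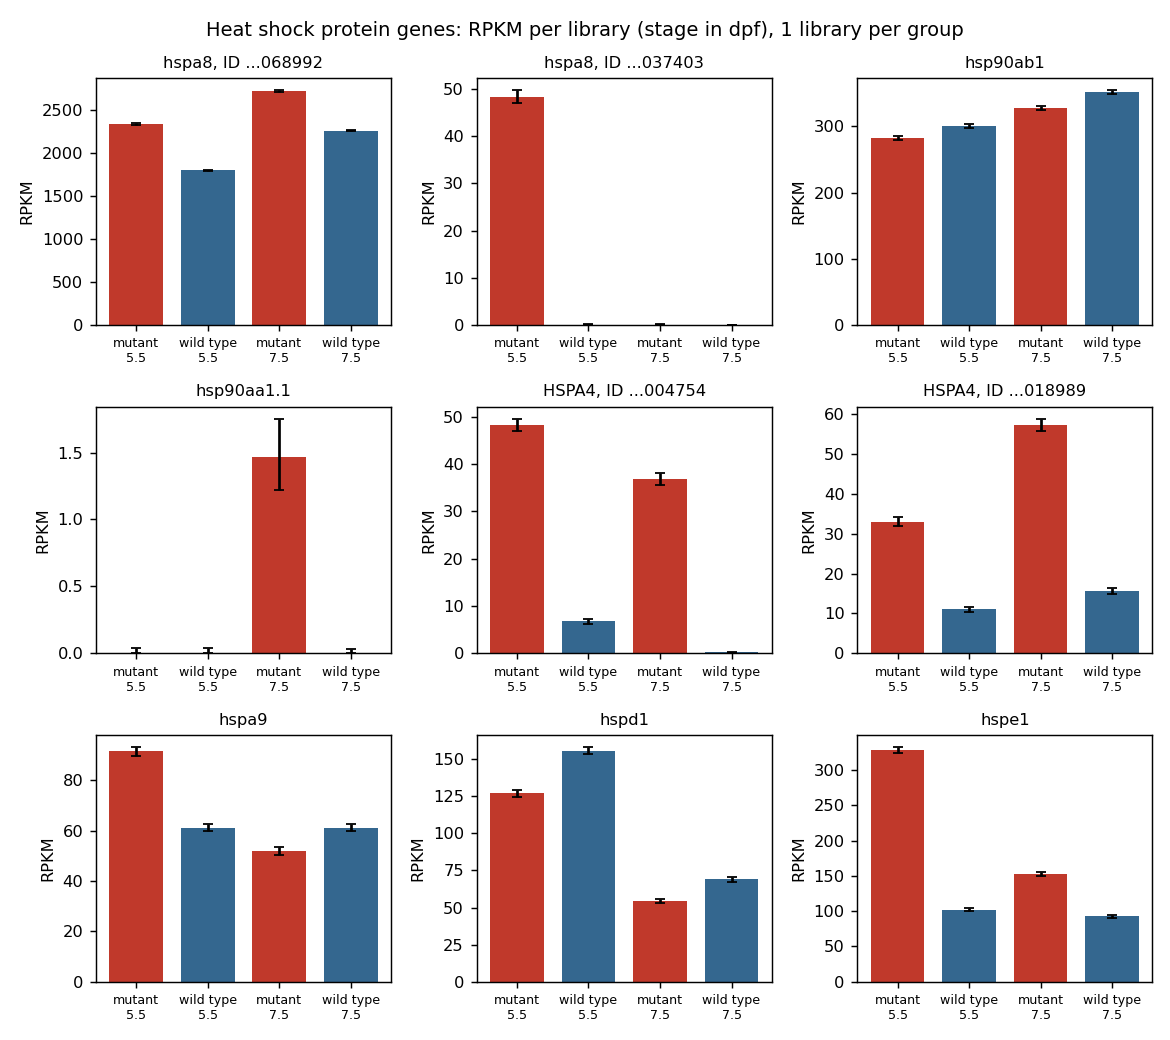
RPKM of each of the 9 heat shock protein IDs (vertical axes, linear, from 0, a scale per gene) in the 4 libraries (horizontal axes, mutant and wild type at 5.5 and 7.5 dpf); bars are the value of the 1 library per group and the error bars 95% counting intervals. Both HSPA4 panels have tall mutant bars (33.0 to 57.3 RPKM) beside wild-type bars of 0.235 to 15.7 RPKM, and the hspe1 panel has its tallest bar, 328 RPKM, in the mutant at 5.5 dpf.

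The constitutive HSP70 gene hspa8 (ENSDARG00000068992), whose product is the housekeeping HSP70 of the cytosol, was by far the most abundant member. It stood at 2339 RPKM (214167 reads) in mutant and 1799.8 RPKM (163035 reads) in wild-type cells at 5.5 dpf, and at 2724 RPKM (203474 reads) in mutant and 2265 RPKM (211141 reads) in wild-type cells at 7.5 dpf. By RPKM it ranked 31 and 45 among all genes in mutant and wild-type cells at 5.5 dpf, and 21 and 29 at 7.5 dpf. The mutant library was the higher one at each stage. The ratio of mutant over wild type was 1.30 at 5.5 dpf (95% counting interval 1.29 to 1.31) and 1.203 at 7.5 dpf (1.195 to 1.210), a difference of 0.38 and 0.27 in log2(RPKM + 1). This direction depended on how the libraries were scaled: with median-ratio size factors the differences were 0.06 and −0.14 and with TMM factors 0.01 and −0.11, so that the sign turned at 7.5 dpf. Between stages hspa8 was 1.165-fold higher at 7.5 than at 5.5 dpf in mutant cells and 1.26-fold higher in wild-type cells, higher under all 3 scalings.

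The other hspa8 ID (ENSDARG00000037403) had reads in essentially 1 library. It was at 48.4 RPKM (5084 reads) in mutant and 0.0385 RPKM (4 reads) in wild-type cells at 5.5 dpf, and at 0.0350 RPKM (3 reads) in mutant and 0.00936 RPKM (1 read) in wild-type cells at 7.5 dpf. The ratio at 5.5 dpf was 1257 (491 to 4616), and at 7.5 dpf no fold is given because both libraries had 3 reads or fewer. Reads of near-identical copies can be split or lost in counting, so this value is uncertain, and even there the copy had 5084 reads beside 214167 of the other ID.

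The constitutive HSP90 gene hsp90ab1 (ENSDARG00000029150), for the cytosolic HSP90 beta that keeps kinases and steroid receptors ready for activation, lay between 283 and 352 RPKM. Its level was 283 RPKM in mutant and 300.4 RPKM in wild-type cells at 5.5 dpf, and 328 RPKM in mutant and 352 RPKM in wild-type cells at 7.5 dpf. The mutant library was the lower one at both stages, with a ratio of 0.940 (0.927 to 0.954) at 5.5 dpf and 0.933 (0.920 to 0.946) at 7.5 dpf. The differences of −0.09 and −0.10 in log2(RPKM + 1) came to −0.40 and −0.51 with median-ratio factors and to −0.46 and −0.47 with TMM factors, lower in mutant cells under all 3 scalings and within 2-fold under each. From 5.5 to 7.5 dpf the ratio of the later over the earlier library was 1.161 in mutant and 1.17 in wild-type cells.

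The highest RPKM of hsp90ab1 over the 4 libraries was 1.24-fold its lowest, and that of hspa8 (ENSDARG00000068992) 1.51-fold. Among the 749 genes with a mean of at least 100 RPKM, a set chosen after the values were seen, the range of log2(RPKM + 1) over the libraries had a median of 1.56. It was smaller than that of hsp90ab1 for 21 genes (2.80%) and smaller than that of hspa8 for 76 genes (10.1%). With median-ratio factors these shares were 10.3% for hsp90ab1 and 2.14% for hspa8, and with TMM factors 7.08 and 0.401%, so that hsp90ab1 had the smaller range of the 2 on the deposited scaling and hspa8 under both others. The mitochondrial genes hspd1 and hspe1, with a highest RPKM of 2.87-fold and 3.54-fold the lowest, lay near the middle of the 749 genes, 48.7 and 57.9% of which had a smaller range.

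The HSP90 alpha gene hsp90aa1.1 (ENSDARG00000010478), known in zebrafish for the folding of myosin in skeletal muscle, had 122 reads (1.47 RPKM) in the mutant library at 7.5 dpf and 0 reads in the 3 other libraries. Its mean was under 1 RPKM, so it is not among the 8 tested members. The mutant level at 7.5 dpf was at least 50.8-fold higher than that of wild type, counted against the 3 reads that a count of 0 allows. Muscle markers did not all have the same order over the libraries. The fast muscle myosin gene myhz2, named after its values were seen, was at 1.26 RPKM in mutant and 0.353 RPKM in wild-type cells at 5.5 dpf, and 17.4 RPKM in mutant and 0.226 RPKM in wild-type cells at 7.5 dpf, with its highest level in the library that held the hsp90aa1.1 reads. The parvalbumin gene pvalb1 was highest there too, at 170 RPKM in mutant and 406 RPKM in wild-type cells at 5.5 dpf, and 801 RPKM in mutant and 261 RPKM in wild-type cells at 7.5 dpf. The muscle actin ID ACTA1 (ENSDARG00000055618) was highest in wild-type cells at 5.5 dpf, with 11.2 RPKM beside 7.58 RPKM in mutant cells of that stage, and with 7.02 RPKM in mutant cells and 0 reads in wild-type cells at 7.5 dpf. That wild-type library of 5.5 dpf also held the muscle creatine kinase genes ckma (38.9 RPKM) and ckmb (45.7 RPKM) but 0 reads of hsp90aa1.1. Both kinase genes were highest in mutant cells at 7.5 dpf, at 39.6 and 55.9 RPKM. The muscle markers pvalb2 (440 RPKM), pvalb4 (252 RPKM) and both TNNT3 IDs (27.2 and 38.9 RPKM) were highest there too. The other ACTA1 ID was highest in wild-type cells at 5.5 dpf (5.23 RPKM), and pvalb3 in mutant cells at 5.5 dpf (12.5 RPKM). The myosin chaperone gene UNC45B was at 0.440 RPKM in mutant cells at 7.5 dpf, at 0.0359 RPKM in those at 5.5 dpf and at 0 reads in both wild-type libraries. The part of muscle RNA in the hsp90aa1.1 reads was not tested.

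Both HSPA4 IDs, for HSP110-type exchange factors of HSP70, were higher in mutant than in wild-type cells at both stages. The ID ENSDARG00000018989 was at 33.0 RPKM (3611 reads) in mutant and 11.01 RPKM (1192 reads) in wild-type cells at 5.5 dpf, and at 57.3 RPKM (5110 reads) in mutant and 15.7 RPKM (1743 reads) in wild-type cells at 7.5 dpf. It was 2.997-fold higher in mutant cells at 5.5 dpf (2.81 to 3.20) and 3.66-fold higher at 7.5 dpf (3.46 to 3.87). Both genotypes had more of it at 7.5 than at 5.5 dpf, by 1.74-fold in mutant and 1.42-fold in wild-type cells.

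The ID ENSDARG00000004754 was at 48.3 RPKM (5648 reads) in mutant and 6.72 RPKM (777 reads) in wild-type cells at 5.5 dpf, and at 36.9 RPKM (3515 reads) in mutant and 0.235 RPKM (28 reads) in wild-type cells at 7.5 dpf. It was 7.19-fold higher in mutant cells at 5.5 dpf (6.67 to 7.76) and 157-fold higher at 7.5 dpf (108 to 236). Between stages it was 28.6-fold lower at 7.5 than at 5.5 dpf in wild-type cells (19.6 to 43.3) and 1.31-fold lower in mutant cells, so the size of the fold at 7.5 dpf goes with the 28 reads of 1 wild-type library. The ratio of ENSDARG00000018989 over ENSDARG00000004754 within a library was 0.683 in mutant and 1.64 in wild-type cells at 5.5 dpf, and 1.55 in mutant and 66.5 in wild-type cells at 7.5 dpf. The related ID with the symbol HSPA4L had 0 reads in all 4 libraries. RefSeq lists hspa4a as a synonym of hspa4l, so hspa4a may be that ID and neither of the HSPA4 IDs.

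The matrix HSP70 gene hspa9 (ENSDARG00000003035), for the import motor and iron-sulfur cluster chaperone mortalin, was highest in mutant cells at 5.5 dpf. Its level was 91.5 RPKM in mutant and 61.2 RPKM in wild-type cells at 5.5 dpf, and 51.9 RPKM in mutant and 61.2 RPKM in wild-type cells at 7.5 dpf. On the deposited scaling the 2 wild-type libraries had the same level (ratio of 7.5 over 5.5 dpf 1.00, 0.969 to 1.03). Median-ratio factors shifted that comparison by −0.04 and TMM factors by −0.17 on the log2 scale. Mutant cells were 1.76-fold lower at 7.5 than at 5.5 dpf (1.71 to 1.82). Mutant cells were 1.496-fold higher than wild type at 5.5 dpf (1.45 to 1.54) and 1.18-fold lower at 7.5 dpf (1.14 to 1.22). These signs were the same under the other scalings, with differences of 0.26 and −0.63 for median-ratio and 0.21 and −0.60 for TMM factors.

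The HSP60 gene hspd1 (ENSDARG00000056160) differed more between stages than between genotypes. It was at 127 RPKM in mutant and 156 RPKM in wild-type cells at 5.5 dpf, and at 54.4 RPKM in mutant and 69.1 RPKM in wild-type cells at 7.5 dpf. Both libraries of 7.5 dpf lay below both of 5.5 dpf, by 2.34-fold in mutant (2.26 to 2.42) and 2.26-fold in wild-type cells (2.19 to 2.32). Within a stage the mutant library was the lower one, by 1.23-fold at 5.5 dpf (1.199 to 1.255) and 1.27-fold at 7.5 dpf (1.22 to 1.32), on the deposited scaling. Median-ratio factors shifted mutant against wild type by −0.31 at 5.5 dpf and −0.41 at 7.5 dpf on the log2 scale. TMM factors shifted it by −0.37 at both stages, so these folds were larger under both other scalings.

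The HSP10 gene hspe1 (ENSDARG00000056167) had the opposite order within a stage. It was at 328 RPKM in mutant and 102 RPKM in wild-type cells at 5.5 dpf, and at 152 RPKM in mutant and 92.6 RPKM in wild-type cells at 7.5 dpf. Both mutant libraries lay above both wild-type ones. The fold was 3.21 at 5.5 dpf (3.13 to 3.30) and 1.65 at 7.5 dpf (1.59 to 1.70), and with median-ratio factors the difference of 0.71 in log2(RPKM + 1) at 7.5 dpf was 0.31. From 5.5 to 7.5 dpf hspe1 was 2.15-fold lower in mutant cells (2.098 to 2.208) and 1.103-fold lower in wild-type cells (1.06 to 1.14).

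In the GRCz12tu gene table hspd1 and hspe1 lie on the same chromosome with 0 genes between them, and in mammals the pair is transcribed from a shared promoter in opposite directions. Their ratio does not depend on the scaling between libraries. The ratio of hspe1 over hspd1 in RPKM was 2.58 in mutant (2.53 to 2.64) and 0.656 in wild-type cells (0.637 to 0.675) at 5.5 dpf, and 2.81 in mutant (2.71 to 2.91) and 1.34 in wild-type cells (1.30 to 1.39) at 7.5 dpf. Both mutant ratios were above both wild-type ratios, by 3.94-fold at 5.5 dpf (3.803 to 4.085) and 2.09-fold at 7.5 dpf (1.991 to 2.197). The ratio of hspa9 over hspd1 was 0.720 in mutant and 0.393 in wild-type cells at 5.5 dpf, and 0.955 in mutant and 0.886 in wild-type cells at 7.5 dpf. For the cytosolic pair, the ratio of hspa8 (ENSDARG00000068992) over hsp90ab1 was 8.28 in mutant and 5.99 in wild-type cells at 5.5 dpf, and 8.31 in mutant and 6.44 in wild-type cells at 7.5 dpf, 1.38-fold and 1.29-fold higher in mutant cells.

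**Figure D2:**
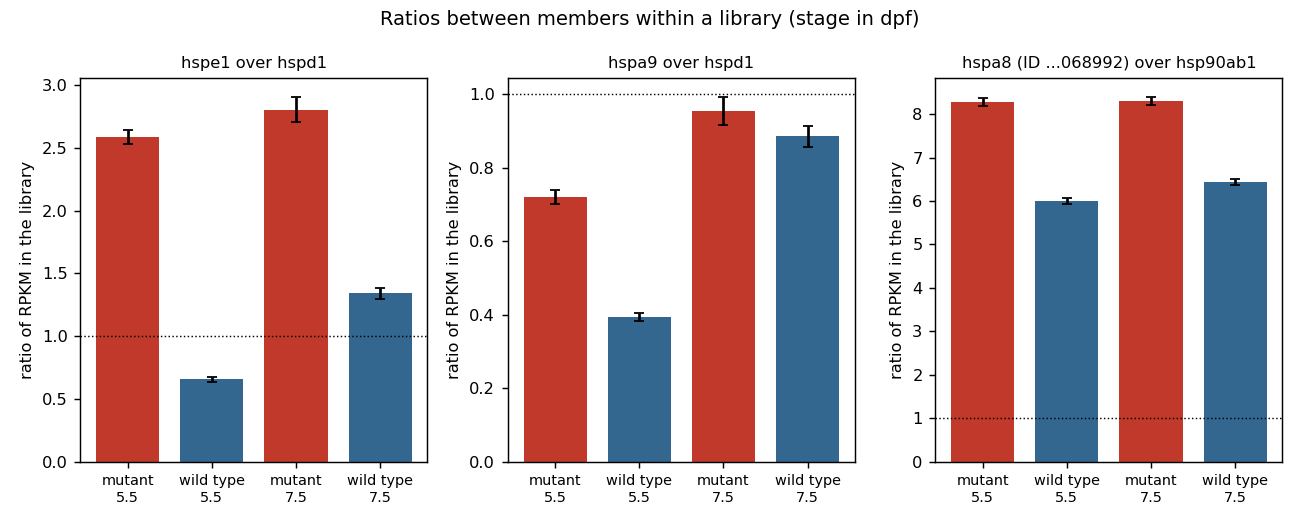
Ratio of RPKM between 2 members within each library (vertical axes, linear, from 0; dotted line at a ratio of 1) in mutant and wild type at 5.5 and 7.5 dpf (horizontal axes); bars are the 1 library per group and error bars 95% counting intervals. In the hspe1 over hspd1 panel the mutant bars, 2.58 and 2.81, stand above the wild-type bars of 0.656 and 1.34.

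Of the 8 members that passed the minimum of 1 RPKM, 4 were at least 2-fold higher in mutant cells at 5.5 dpf and 0 were 2-fold lower, while among all 11135 tested genes 28% were higher and 25.6% lower. The 4 were both HSPA4 IDs, hspe1 and the hspa8 ID ENSDARG00000037403, which passed the minimum through that mutant library alone. At 7.5 dpf 2 members, both HSPA4 IDs, were 2-fold higher and 0 were lower, against 40% higher and 23.1% lower of all tested genes. Both HSPA4 IDs passed 2-fold at both stages, as did 12.1% of tested genes in that direction (7.73% in the other). The median difference of the 8 members was 1.04 at 5.5 dpf, beside 0.00 over all tested genes, and 0.15 at 7.5 dpf, beside 0.33. The median at 5.5 dpf includes hspa8 ENSDARG00000037403 (difference 5.57), tested through that mutant library alone, and would be lower without it. Among the 749 genes of at least 100 RPKM the shares were 21.5% higher and 10.9% lower at 5.5 dpf, and 24.8 and 22.3% at 7.5 dpf, and of the 4 members in that set hspe1 at 5.5 dpf was the 1 that passed 2-fold.

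**Figure D3:**
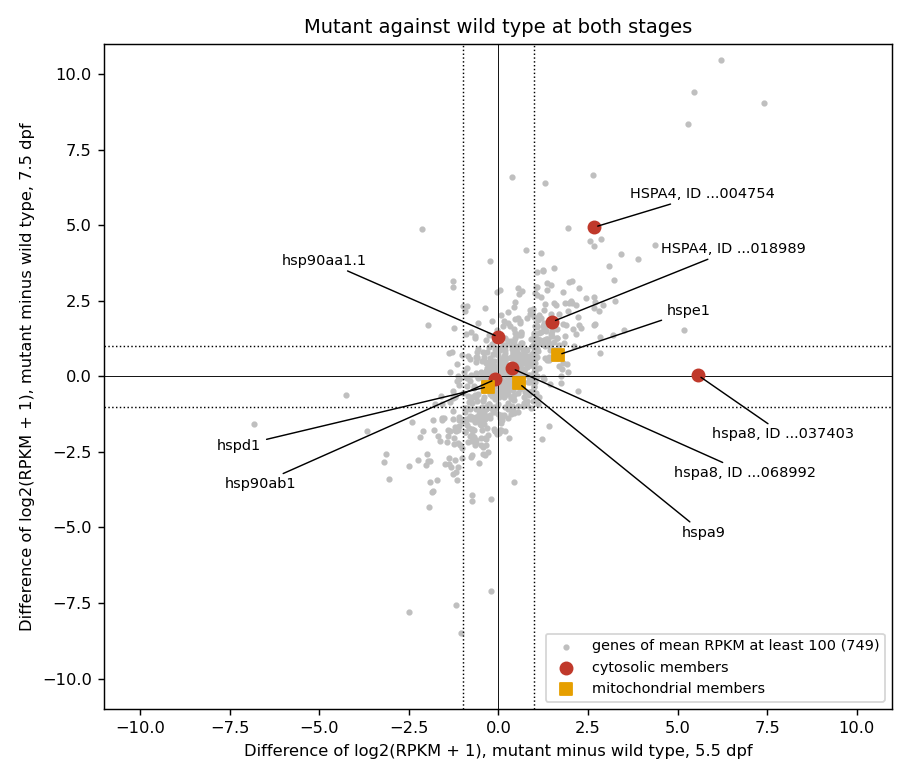
Difference of log2(RPKM + 1), mutant minus wild type, at 5.5 dpf (horizontal axis) and 7.5 dpf (vertical axis), with dotted lines at 2-fold; circles are cytosolic members, squares mitochondrial members and grey points the 749 genes with a mean of at least 100 RPKM. Both HSPA4 IDs lie beyond 2-fold on both axes, hspe1 on the 5.5 dpf axis, and hspa8 (ENSDARG00000068992), whose sign at 7.5 dpf turned under other scalings, lies near the origin with hsp90ab1 and hspd1.

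Between stages, 0 members were 2-fold higher and 3 were 2-fold lower at 7.5 than at 5.5 dpf in mutant cells (hspd1, hspe1 and hspa8 ENSDARG00000037403), beside 33.8% higher and 26.2% lower of all tested genes. In wild-type cells 0 were higher and 2 were lower (hspd1 and HSPA4 ENSDARG00000004754), beside 21.4 and 30.1%. Of the members, hspd1 was therefore lower at 7.5 dpf in both genotypes. The comparisons between stages and between genotypes share libraries and are not independent of each other.

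A count model over all 4 libraries, with genotype and stage as terms and 1 residual degree of freedom, gave no call for a member by edgeR's quasi-likelihood test with Benjamini-Hochberg adjustment (adjusted p = 1 for each of the 8). Over all genes that test called 0, so its lack of a call for the members does not set them apart from other genes. There were 113 higher and 229 lower genes at an unadjusted p under 0.05, none of them a member. The lowest unadjusted p of a member was 0.0587 for HSPA4 ENSDARG00000004754. DESeq2 called 4.29% of 8328 genes higher and 5.5% lower, among them HSPA4 ENSDARG00000004754 (log2 fold change 4.69 ± 1.36 SE, adjusted p = 0.0124). DESeq2 also called hspa8 ENSDARG00000037403, but that ID passed the minimum through the mutant library at 5.5 dpf alone and had 4 reads or fewer elsewhere, so no value over both stages is given for it. HSPA4 ENSDARG00000018989 and hspe1 were higher in both mutant libraries but not called by DESeq2, with adjusted p = 0.475 and 0.501. In this fit the difference of an effect between the 2 stages counts as error. In data simulated with the spread estimated here, DESeq2 also called unchanged genes.

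For each member of at least 100 RPKM, the 2 named genes most like it over the 4 libraries were found among 648 by the largest gap in centred log2(RPKM + 1). For hspa8 (ENSDARG00000068992) these were BTF3, with a largest gap of 0.10, and ppiaa, with 0.13, and 1 of those for hsp90ab1 was ATF3 (0.09). For hspd1 they were shbg (0.12) and PGRMC1 (0.19). For hspe1 they were atp5f1e (0.18), at 220.4 RPKM in mutant and 70.32 RPKM in wild-type cells at 5.5 dpf and 83.1 RPKM in mutant and 54.0 RPKM in wild-type cells at 7.5 dpf, and CHCHD2 (0.30). Over 4 libraries this likeness is a description, with no test.

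Other cytosolic HSP70 and HSP90 genes were higher in mutant cells at 5.5 dpf in all 5 tested of 10 matched IDs, and 3 of 5 at 7.5 dpf (median differences 1.94 and 1.01, beside 0.00 and 0.33 over all genes). Over all tested genes 28% were higher at 5.5 dpf and 40% at 7.5 dpf. With median-ratio or TMM factors 4 of 5 passed at 5.5 dpf and 2 of 5 at 7.5 dpf, the second near the share of all genes. The ID with the symbol HSP90AA1 (ENSDARG00000024746), a near copy of hsp90aa1.1 with reads that could be split with it, was at 216 RPKM in mutant and 18.2 RPKM in wild-type cells at 5.5 dpf, and 181 RPKM in mutant and 61.3 RPKM in wild-type cells at 7.5 dpf. It was 11.9-fold (11.4 to 12.4) and 2.96-fold (2.88 to 3.04) higher in mutant cells. The inducible HSP70 gene hsp70.3 was at 263 RPKM in mutant and 61.9 RPKM in wild-type cells at 5.5 dpf and at 571 RPKM in mutant and 194 RPKM in wild-type cells at 7.5 dpf, 4.25-fold and 2.94-fold higher. The inducible gene hsp70l, whose reads may also be shared with its copies, was 3.87-fold higher at 5.5 dpf and 1.12-fold higher at 7.5 dpf. The ribosome-associated HSPA14 was 2.60-fold and 2.11-fold higher.

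Heat shock factors switch on stress-inducible chaperone genes. The gene hsf1, for the main such factor, was at 1.96 RPKM in mutant and 1.28 RPKM in wild-type cells at 5.5 dpf. At 7.5 dpf it was at 14.9 RPKM (1775 reads) in mutant cells with 0 reads in wild-type cells. This was at least 738-fold higher in that pair, a bound for counting error only. In that wild-type library 3505 of the 11135 tested genes had 0 reads. HSF2 was 1.463-fold and 1.495-fold lower in mutant cells at the 2 stages. HSBP1, for a protein that binds heat shock factors, had 216 reads in mutant and 0 in wild-type cells at 5.5 dpf but 0 reads in mutant and 49 in wild-type cells at 7.5 dpf. Of the 4 tested IDs in this list 1 was higher and 0 lower at 5.5 dpf, and 2 were higher and 1 lower at 7.5 dpf (median differences 0.39 and 0.51), near the shares of 28% higher and 25.6% lower of all genes at 5.5 dpf and 40% and 23.1% at 7.5 dpf. HSBP1 at 5.5 dpf and hsf1 at 7.5 dpf passed the minimum of 1 RPKM through the mutant library in which they were higher alone.

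The partners of cytosolic HSP70 went both ways. Of 20 tested IDs of J-domain, exchange factor and other partner genes 4 were higher and 6 lower in mutant cells at 5.5 dpf. At 7.5 dpf 6 were higher and 2 lower (medians 0.54 and 0.40). With median-ratio or TMM factors 2 were higher and 6 lower at 5.5 dpf and 5 higher and 2 lower at 7.5 dpf. Of all genes 28% were higher and 25.6% lower at 5.5 dpf and 40% and 23.1% at 7.5 dpf, on the deposited scaling. Of the 6 lower at 5.5 dpf DNAJB14 and BAG5 passed the minimum of 1 RPKM through the wild-type library of that stage alone. DNAJC7, among the 2 lower at 7.5 dpf, likewise passed it through the wild-type library of 7.5 dpf alone. The J-domain gene dnaja1, for a main HSP40 partner, was at 13.7 RPKM in mutant cells and 0 reads in wild-type cells at 5.5 dpf, and at 14.5 RPKM in mutant and 4.42 RPKM in wild-type cells at 7.5 dpf. Its relative DNAJA2 was lower in mutant cells in both pairs, 21.7-fold at 5.5 dpf (14.9 to 33.0) and at least 211-fold at 7.5 dpf. The J-domain gene dnajb6a was 102-fold lower in mutant cells at 5.5 dpf (59.7 to 193) and 2.12-fold higher at 7.5 dpf, and DNAJC9 was 2.47-fold higher at 5.5 dpf and at least 493-fold higher at 7.5 dpf.

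Among 13 tested HSP90 co-chaperones 6 were higher and 1 lower in mutant cells at 5.5 dpf, and 5 were higher and 2 lower at 7.5 dpf (medians 0.70 and 0.52, the second 0.46 with genes at 0 set to 3 reads). The shares of all genes were 28% higher and 25.6% lower at 5.5 dpf and 40% and 23.1% at 7.5 dpf, so the count of higher co-chaperones at 7.5 dpf was near that of all genes. Of the 6 at 5.5 dpf AHSA1 and 1 TSC1 ID passed the minimum of 1 RPKM through that mutant library alone. Among the 5 at 7.5 dpf PTGES3 (ENSDARG00000089626) passed it through the mutant library of 7.5 dpf alone. The other PTGES3 ID (ENSDARG00000037284), also among these 5, was at 63.3 RPKM in mutant and 20.6 RPKM in wild-type cells at 7.5 dpf. CHORDC1 (ENSDARG00000003973), which binds HSP90, was 13.1-fold higher at 5.5 dpf (11.5 to 14.9) and at least 535-fold higher at 7.5 dpf, where wild-type cells had 0 reads. The other CHORDC1 ID (ENSDARG00000017067) did not follow, with differences of 0.12 at 5.5 dpf and −0.99 at 7.5 dpf. It had 1268 reads in mutant and 1147 in wild-type cells at 5.5 dpf, and 171 in mutant and 469 in wild-type cells at 7.5 dpf. NUDCD2 was 2.19-fold lower at 5.5 dpf and at least 228-fold higher at 7.5 dpf, and PPID, for a cyclophilin of the HSP90 complex, was 1.45-fold higher and then 5.13-fold lower. Between stages 0 of the 13 were higher and 7 were lower at 7.5 dpf in mutant cells, and 0 were higher and 6 lower in wild-type cells. Of all genes 33.8% were higher and 26.2% lower in mutant cells, and 21.4 and 30.1% in wild-type cells. Of the 7, AHSA1 and 1 TSC1 ID passed the minimum through the mutant library at 5.5 dpf alone.

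The TRiC chaperonin, the cytosolic counterpart of HSP60 that folds actin and tubulin, and its delivery factor prefoldin had most of their larger differences on the higher side. Of 14 tested genes 7 were higher and 0 lower in mutant cells at 5.5 dpf, and 8 were higher and 0 lower at 7.5 dpf (medians 1.04 and 1.14, beside 0.00 and 0.33 over all genes). Of all genes 28% were higher and 25.6% lower at 5.5 dpf, and 40% and 23.1% at 7.5 dpf. With median-ratio factors 6 were higher and 0 lower at 5.5 dpf and 4 higher and 1 lower at 7.5 dpf. Under that scaling 2637 of all tested genes were higher and 3250 lower at 5.5 dpf, and 3969 and 2902 at 7.5 dpf. The count of higher genes in this list at 7.5 dpf was then not above the share of all genes. All 14 had more than 3 reads in each library. The prefoldin-like gene URI1 was 5.12-fold and 11.9-fold higher, while the subunits PFDN4 and PFDN2 were within 2-fold at both stages, PFDN4 at 73.7 RPKM in mutant and 86.1 RPKM in wild-type cells at 5.5 dpf and PFDN2 at 8.62 RPKM in mutant and 14.8 RPKM in wild-type cells at 7.5 dpf.

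Other mitochondrial chaperones, their partners and proteases had differences past 2-fold at both stages, and the difference between the stages was not tested. Of 16 tested of 31 matched IDs 11 were higher and 0 lower in mutant cells at 5.5 dpf (median 1.61; 10 higher with median-ratio or TMM factors), and 2 were higher and 3 lower at 7.5 dpf (median −0.01, or 0.02 with genes at 0 set to 3 reads). Of all genes 28% were higher and 25.6% lower at 5.5 dpf, and 40% and 23.1% at 7.5 dpf. At 7.5 dpf 8 of the 16 had 0 reads in 1 library of the pair or in both. Of the 11 at 5.5 dpf GRPEL1, YME1L1 and afg3l1 passed the minimum of 1 RPKM through that mutant library alone. Among the 15 IDs under the minimum, SPG7 (difference −2.02), clpb (−1.53) and 1 HTRA2 ID (−1.27) were past 2-fold on the lower side at 5.5 dpf and atf5a (3.30 RPKM in mutant cells and 0 reads in wild-type cells) on the higher side. Mutant cells had 0 of the 16 higher and 11 lower at 7.5 than at 5.5 dpf (median −2.00), and wild-type cells 3 higher and 5 lower (median −0.51). Of those 11, TRAP1, GRPEL1, YME1L1 and afg3l1 passed the minimum through the mutant library at 5.5 dpf alone. Between stages 33.8% of all genes were higher and 26.2% lower in mutant cells, and 21.4 and 30.1% in wild-type cells. GRPEL2, for a nucleotide exchange factor of HSPA9, was at 83.0 RPKM in mutant and 20.7 RPKM in wild-type cells at 5.5 dpf, and at 63.4 RPKM in mutant cells with 0 reads in wild-type cells at 7.5 dpf. The HSPA9 escort gene dnlz was 30.0-fold higher in mutant cells at 5.5 dpf (23.0 to 39.9) and had 0 reads in them at 7.5 dpf, against 901 in wild-type cells. The protease unfoldase gene CLPX (ENSDARG00000029063) was 4.02-fold higher at 5.5 dpf and likewise had 0 reads in mutant and 1280 in wild-type cells at 7.5 dpf. The other CLPX ID (ENSDARG00000067796), with more reads in each library, was within 2-fold at both stages. It was at 20.7 RPKM in mutant and 20.6 RPKM in wild-type cells at 5.5 dpf, and 15.1 RPKM in mutant and 19.6 RPKM in wild-type cells at 7.5 dpf. The stress factor gene atf5b was within 2-fold at both stages. The 2 tested small heat shock protein genes crossed over: HSPB8 was 3.24-fold higher in mutant cells at 5.5 dpf and 5.14-fold lower at 7.5 dpf, and HSPB1 2.40-fold lower and then 23.7-fold higher, at 257 RPKM in mutant and 10.8 RPKM in wild-type cells at 7.5 dpf.

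**Figure D4:**
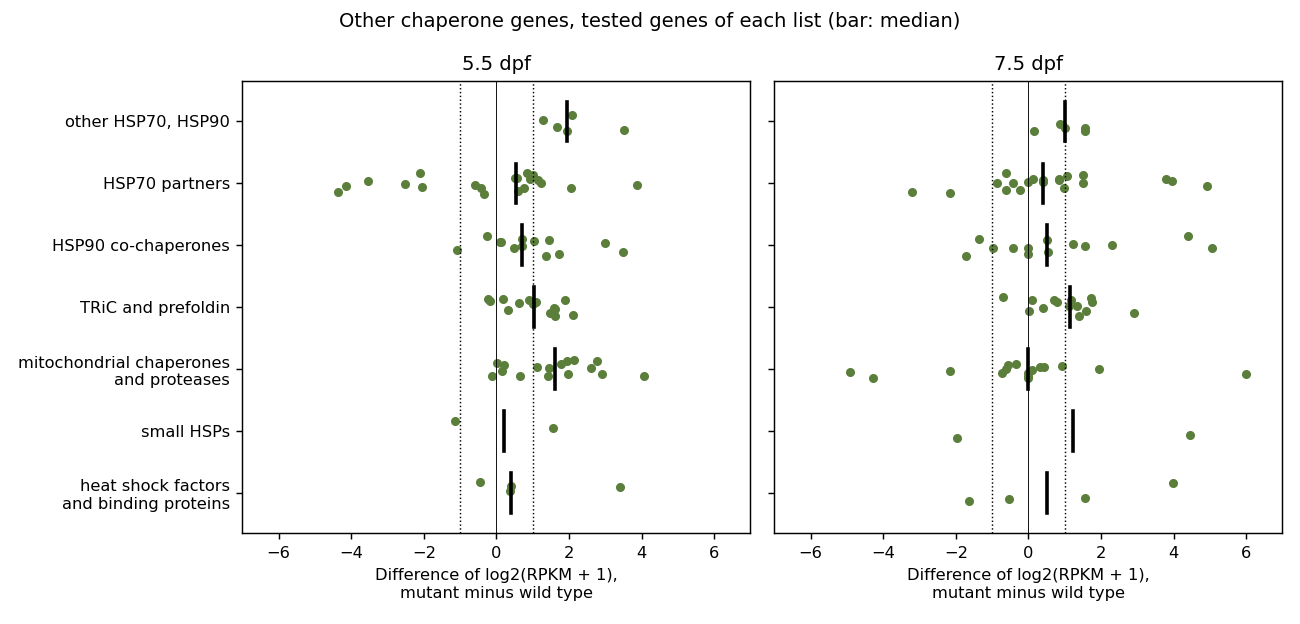
Difference of log2(RPKM + 1), mutant minus wild type (horizontal axes), for the tested genes of 7 other chaperone lists (rows) at 5.5 dpf (left) and 7.5 dpf (right); points are genes, with small vertical offsets for legibility, black bars the median and dotted lines 2-fold. The row of mitochondrial chaperones and proteases has 11 of 16 points beyond 2-fold on the higher side at 5.5 dpf (3 of them tested through that mutant library alone, and 10 under other scalings), and 2 on the higher and 3 on the lower side at 7.5 dpf.

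Markers of other cells moved with genotype and stage too. At 7.5 dpf 11 of 12 tested macrophage markers and 7 of 8 tested neutrophil markers were at least 2-fold higher in mutant cells. Of all tested genes 40% were higher at that stage. Of these markers 7 macrophage and 3 neutrophil IDs passed the minimum of 1 RPKM through that mutant library alone. Summed levels at that stage were 529 RPKM in mutant and 155 RPKM in wild-type cells for macrophage markers. For neutrophil markers they were 354 RPKM in mutant and 37.4 RPKM in wild-type cells. At 5.5 dpf these sums were 75.6 RPKM in mutant and 23.0 RPKM in wild-type cells for macrophage markers, with 11 of 22 and 18 of 22 IDs at 0 reads, and 61.6 RPKM in mutant and 36.9 RPKM in wild-type cells for neutrophil markers. LGMN made up most of both wild-type macrophage sums, at 18.1 RPKM at 5.5 dpf and 134 RPKM at 7.5 dpf. The neutrophil marker lyz had 207 reads in wild-type cells at 5.5 dpf and 0 reads in every other library. The neutrophil IDs of npsn, NCF4, CSF3R and cxcr1 had 0 reads in all libraries. Markers of biliary, stellate and mesenchymal cells summed to 7609 RPKM in mutant and 3853 RPKM in wild-type cells at 5.5 dpf, and to 7620.5 RPKM in mutant and 7093 RPKM in wild-type cells at 7.5 dpf. The keratin gene krt4 made up most of each of these sums except that of mutant cells at 7.5 dpf. It was at 6268 RPKM in mutant and 3196 RPKM in wild-type cells at 5.5 dpf. At 7.5 dpf it was at 3303 RPKM in mutant and 5829 RPKM in wild-type cells, against the direction of the sum. Of the 17 tested IDs of this list 10 were 2-fold higher and 2 lower in mutant cells at 5.5 dpf (median 1.28). At 7.5 dpf 14 were higher and 2 lower (median 1.56). With median-ratio or TMM factors 8 were higher at 5.5 dpf and 11 at 7.5 dpf. Of all tested genes 28% were higher and 25.6% lower at 5.5 dpf, and 40% and 23.1% at 7.5 dpf. The smooth muscle gene TAGLN (ENSDARG00000033466) was at 249 RPKM in mutant and 25.8 RPKM in wild-type cells at 7.5 dpf, and acta2 at 21.4 RPKM in mutant cells with 0 reads in wild-type cells. Skin, muscle and lens markers summed to 5781 RPKM in mutant and 3027 RPKM in wild-type cells at 5.5 dpf, and to 6252 RPKM in mutant and 5203 RPKM in wild-type cells at 7.5 dpf. Of the 19 tested IDs of that list 8 were higher and 7 lower at 5.5 dpf, and 10 higher and 0 lower at 7.5 dpf. With median-ratio or TMM factors that list had 5 higher at 5.5 dpf and 7 at 7.5 dpf, near the shares of all genes. Its muscle genes ckma (13.9 RPKM in mutant and 38.9 RPKM in wild-type cells), ckmb (6.57 and 45.7 RPKM in mutant and wild-type cells) and pvalb4 (2.63 and 51.1 RPKM in mutant and wild-type cells) were lower in mutant cells at 5.5 dpf, against the direction of the sum. Exocrine pancreas markers summed to 45.6 RPKM in mutant and 468 RPKM in wild-type cells at 5.5 dpf, and to 509 RPKM in mutant and 2023 RPKM in wild-type cells at 7.5 dpf. Intestine markers summed to 1248 RPKM in mutant and 2375 RPKM in wild-type cells at 5.5 dpf. At 7.5 dpf they summed to 592 RPKM in mutant and 1349 RPKM in wild-type cells. The gene apoa4b.1 made up most of each intestine sum, at 1213 RPKM in mutant and 2329 RPKM in wild-type cells at 5.5 dpf. At 7.5 dpf it was at 582 RPKM in mutant and 1307 RPKM in wild-type cells. Of the 7 matched intestine IDs 4 had 0 reads in each library of 5.5 dpf and 5 in each of 7.5 dpf. VIL1 went the other way at 5.5 dpf, at 12.6 RPKM in mutant and 5.68 RPKM in wild-type cells. Endothelial and red blood cell markers stayed at 47.3 RPKM or less in each library. Chaperone genes are expressed in most cell types, and the part of these cells in the HSPA4, hspe1 and other differences was not tested.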

How the data were processed

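RNA of sorted hepatocytes was sequenced in 4 libraries, 1 per genotype and stage, grouped by the genotype and stage in the labels. The submitters' processing notes name the aligners TopHat2 2.0.12 and Bowtie2 2.2.3, the counter HTSeq 0.6.0 and the package DESeq 1.16.0, without saying what each was run on. No source used here gives the genome build, the annotation or the use of strand. The authors deposited RPKM for 33737 IDs in the 4 libraries. The authors also deposited 4 comparison tables with normalized values, which were found from the values to be CPM, and with a fold change (a linear ratio), a log2 fold change and p-values with adjusted p-values per gene. The adjusted p-values the authors deposited lie below the p-values for each member where both are above 0, and were not used.

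Whole reads were recovered from the deposited CPM (100% of listed values whole within 0.01), and 1502 of 44540 values of tested genes were filled from RPKM. Depth was 29648253 to 36999723 reads, and 0 reads allows up to 3 reads, or 0.0811 to 0.101 CPM. The measure was the difference of log2(RPKM + 1), on which changes of low genes look smaller than they are, in genes of mean RPKM of at least 1, held against a rule of 2-fold size; a fold in the text is a ratio of CPM from reads, with an exact 95% counting interval (the interval of a ratio of ratios is a normal approximation on the log scale). Symbols came from a table matching 21939 of the IDs, without regard to case and, where needed, without the copy letter, which gave 9 member IDs where 8 had been foreseen. Named genes were all members and, in each of 7 other chaperone lists, the highest and lowest difference in each mutant comparison, with hsf1; in each of 8 marker lists the gene of highest level, of which not all are printed; 1 gene of similar pattern is not reported here; genes named for passing the filter through 1 library or lying under it, the muscle and smooth muscle markers, UNC45B and HSPA4L were named after their values were seen. The fibrinogen genes, HNF4A, VIL1, the named neutrophil markers and the other IDs of CHORDC1, CLPX and PTGES3 were also named after their values were seen. Members and lists were chosen with earlier results of these data known.

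Alternatives were other pseudocounts (0.1 and 5), filters, scalings (median-ratio and TMM), a 1.5-fold rule, the authors' log2 fold changes, sums over copies, and count models (edgeR 4.0.16 and DESeq2 1.42.0 in R 4.3.3) tested on simulated data, in which DESeq2 also called unchanged genes at the spread estimated here. Tables were handled in Python 3.11.15 with pandas 2.3.3, numpy 2.4.6 and scipy 1.17.1. Promoter motifs were planned and not analysed here.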

Additional observations from a re-analysis of the deposited data

Results flagged for a closer look

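The gene hspa9 differed in opposite directions at the 2 stages: the difference of log2(RPKM + 1), mutant minus wild type, was 0.57 at 5.5 dpf (91.5 RPKM in mutant and 61.2 RPKM in wild-type cells) and −0.23 at 7.5 dpf (51.9 RPKM in mutant and 61.2 RPKM in wild-type cells). With 1 library per group the difference between the stages was not tested.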

How the results depend on the processing

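No paired analysis was possible because each group has 1 library and the labels give no replicate numbers. No value past 2-fold changed sign under an alternative; within 2-fold, the 7.5 dpf difference of hspa8 (ENSDARG00000068992), 0.27, became −0.14 with median-ratio and −0.11 with TMM factors. The counts of members turned on which IDs stand for hspa4a, a choice added after the data were seen. Without both HSPA4 IDs, 2 members were 2-fold higher in mutant cells at 5.5 dpf, 0 at 7.5 dpf and 0 at both stages, and 1 was lower at 7.5 than at 5.5 dpf in wild-type cells (1 also with ENSDARG00000018989 alone). With either HSPA4 ID alone 1 was higher at 7.5 dpf and 1 at both stages. With the authors' deposited log2 fold change 4 of 9 were higher at 7.5 dpf, among them hsp90aa1.1, which is under the minimum of 1 RPKM, and hspa8 ENSDARG00000037403, at 3 reads and 1 read (with no filter on low values 3 of 9). Between stages in mutant cells 1 member was higher, in place of 0, with no filter on low values, with a 1.5-fold rule or with the authors' values. For both stages together, leaving out the 7.5 dpf pair gave 4 and edgeR's test 0. Without the 10 most abundant other genes the members took 1.21% of reads in mutant and 0.956% in wild-type cells at 5.5 dpf, and 1.24% in mutant and 1.14% in wild-type cells at 7.5 dpf. Of 182 values of single members under an alternative 71 moved by more than their counting error. Median-ratio factors shifted mutant against wild type by −0.31 at 5.5 dpf and −0.41 at 7.5 dpf on the log2 scale (TMM by −0.37 at both), and the median of all genes at 7.5 dpf from 0.33 to 0.05. Depth limits hsp90aa1.1 and the second hspa8 ID, at 4 reads or fewer in 3 of 4 libraries. The promoter motif description was not run.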
